A study of Homo sapiens with 8 samples.

Results

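The ribosomal protein paralogs RPL22L1, RPL26L1, RPL39L, RPL7L1 and RPS27L were followed in SH-SY5Y cells depleted of RPS29, each beside its parent gene (RPL22, RPL26, RPL39, RPL7 and RPS27). The members were taken by gene symbol from the RNA-seq and Ribo-seq count tables, 5 genes of 19073 listed in the 2 tables together. RNA-seq lists all 5 of the paralogs and Ribo-seq lists 4, since RPL26L1 is not in the Ribo-seq table used here. All 4 RNA-seq and all 4 Ribo-seq libraries came from the human neuroblastoma cell line SH-SY5Y. Knockdown cells carried a short hairpin RNA against RPS29 (shRPS29) and control cells a control hairpin (shCONT), with 2 libraries per group in each assay. The labels name neither the hairpin sequences nor how many hairpins were used, and they do not say whether replicates came from separate cultures, so p-values measure the spread between these libraries only.

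A eukaryotic ribosome is assembled from rRNA and a fixed set of ribosomal proteins, most of them encoded by a single expressed gene. A few have a further gene whose product resembles the parent protein. RPL22L1 is the paralog of RPL22, a protein that binds RNA and is known to hold down RPL22L1 expression. RPL26L1 encodes a protein almost the same as RPL26, and RPL39L is a paralog of RPL39 best known from testis and some tumours. RPL7L1 resembles RPL7 but acts in assembly of the large subunit rather than as a structural protein of the finished ribosome. RPS27L is a paralog of RPS27 and a known target gene of the tumour suppressor p53. Most ribosomal protein mRNAs start with a 5' terminal oligopyrimidine (TOP) tract, a C followed by a run of C and T, through which growth signals control their translation.

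The annotated transcription starts are shown because the TOP tract lies there and the paralogs differ in it. Each line gives 10 bases before and 20 bases from the annotated start, 5' to 3', taken from the RefSeq promoter table (GRCh38.p14). Capitals mark a run of at least 5 pyrimidines that begins with a C at the start itself. Entries were found for 4 of the 5 paralogs (RPL26L1 has 2) and 4 of the 5 parents. RPL39L and RPL7 have none.
RPL22L1, chr3:170870176-170870205, minus strand: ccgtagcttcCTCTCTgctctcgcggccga
RPL26L1, chr5:172958719-172958748, plus strand: tccaggggtcggcgaacgaaacgcggagct
RPL26L1, chr5:172958870-172958899, plus strand: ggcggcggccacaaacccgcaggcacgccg
RPL7L1, chr6:42879606-42879635, plus strand: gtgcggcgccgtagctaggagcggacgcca
RPS27L, chr15:63157458-63157487, minus strand: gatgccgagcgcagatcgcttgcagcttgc
RPL22, chr1:6199576-6199605, minus strand: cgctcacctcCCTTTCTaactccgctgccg
RPL26, chr17:8383174-8383203, minus strand: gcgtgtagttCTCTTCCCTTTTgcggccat
RPL39, chrX:119791611-119791640, minus strand: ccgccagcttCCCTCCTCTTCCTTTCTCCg
RPS27, chr1:153990752-153990781, plus strand: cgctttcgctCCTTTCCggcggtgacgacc
All 4 parents with an entry began with such a run, of 7 bases in RPL22, 12 in RPL26, 19 in RPL39 and 7 in RPS27. Among the paralogs, RPL22L1 had a run of 6 bases, and no entry of RPL26L1, RPL7L1 or RPS27L started with a C. Of all 35116 promoter windows, each from 250 bases before to 50 after a start, 1429 (4.07%) had such a run at the start. Counted per gene with any entry, 47 of 62 ribosomal protein genes (75.8%) had one. The annotated start is a single position, and start sites used in these cells were not measured.

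RNA-seq libraries held 17539104 to 19156104 counts and Ribo-seq libraries 2630463 to 4375971. RPS29 RNA measured 137 and 160.1 CPM (counts scaled to library size with TMM factors) with the control hairpin and 7.53 and 6.46 CPM with shRPS29, a log2 fold change of -4.40 (SE 0.115, edgeR adjusted p = 6.32e-12). In RNA-seq 11 of 12 noradrenergic neuroblastoma markers reached a mean of 1 CPM, with summed levels of 8198 to 8446 CPM in the controls and 7896 to 7951 CPM in the knockdown. Of the 11 tested, 3 rose and 3 fell by edgeR, among them ISL1 (log2 fold change 0.38) and STMN2 (-1.04). By the same test 14.4% of all 14723 genes rose and 16.3% fell, at an adjusted p below 0.05. Of 7 fibroblast markers 5 reached a mean of 1 CPM. The 7 summed to 257 to 282 CPM in the controls and 279 to 334 CPM in the knockdown. Epithelial markers reached it in 3 of 7 and summed to 9.02 to 11.4 CPM against 7.23 to 8.88 CPM, with KRT5 not listed in the RNA-seq table. None of 7 blood markers did (0.902 to 1.11 against 1.88 to 2.31 CPM, with CD3E, HBB and HBA1 among those not listed), and the RNA-seq table lists none of 7 testis germ cell markers. The part of these shifts in the results was not tested. In these bulk libraries fewer cells of a type and less RNA per cell cannot be told apart.

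The first comparison asked how RNA of the paralogs differed between knockdown and control cells. RNA of RPS27L rose 1.64-fold and that of RPL7L1 rose 1.20-fold, while RPL22L1, RPL26L1 and RPL39L did not pass the test. RNA of all 5 parents fell, by 1.26-fold (RPL39) to 1.53-fold (RPL26). By edgeR's quasi-likelihood test with an adjusted p below 0.05, 2 of 5 paralogs were higher and 0 lower (unadjusted p below 0.05 gave the same 2 and 0, as did DESeq2 and limma-voom). Over all 14723 genes tested, 14.4% were called higher and 16.3% lower. In GRCh38.p14 the paralogs lie at chr3:170864875-170870195 (RPL22L1), chr5:172954094-172969771 (RPL26L1), chr3:187120948-187139496 (RPL39L), chr6:42879616-42889900 (RPL7L1) and chr15:63148249-63157477 (RPS27L).

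Control libraries held 820 and 926 counts of RPS27L (46.2 and 51.6 CPM), and knockdown libraries 1672 and 1355 (85.7 and 74.8 CPM). Both knockdown libraries lay above both controls, as they did for RPL7L1 and for 32.3% of all genes tested. On the log2 scale RPS27L rose by 0.71 (SE 0.0912, edgeR adjusted p = 4.55e-05). Leaving out any library gave 0.61 to 0.81, each time called. Only 575 of the 14723 genes had a larger log2 fold change.

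RPL7L1 had 4622 and 4685 counts in control libraries (260.4 and 261 CPM) and 6201 and 5558 in knockdown libraries (318 and 307 CPM). The groups did not overlap, but the difference was small beside that of RPS27L. It rose by 0.26 on the log2 scale (SE 0.0685, edgeR adjusted p = 0.00991). Without control replicate 1 it was 0.26 and not called (edgeR adjusted p = 0.194), nor was it without control replicate 2 (0.26, edgeR adjusted p = 0.184). Each of these fits leaves 1 control library.

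For RPL22L1 the RNA level was 39.3 and 43.4 CPM without the knockdown and 45.4 and 32.6 CPM with it. The knockdown libraries lay on either side of the controls, so the groups overlapped. RPL22L1 differed by -0.08 on the log2 scale (SE 0.126, edgeR adjusted p = 0.669). It was 0.14 without knockdown replicate 2, and -0.35 and called lower without knockdown replicate 1 (edgeR adjusted p = 0.00401).

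RPL26L1 showed the same arrangement of libraries, with control levels of 32.1 and 35.6 CPM against 38.3 and 28.1 CPM. On the log2 scale the difference was -0.02 (SE 0.127, edgeR adjusted p = 0.908). It was 0.18 without knockdown replicate 2, 0.05 without control replicate 2 and -0.27, called lower, without knockdown replicate 1 (edgeR adjusted p = 0.0456). An antisense RNA gene, RPL26L1-AS1, overlaps the locus and had 7 to 16 counts per library, against 510 to 747 for RPL26L1. Whether counting used strand is not given in the sources used here.

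RPL39L levels were 25.3 and 23.9 CPM in control cells and 31 and 25 CPM in knockdown cells. Knockdown replicate 1 lay above both controls and knockdown replicate 2 lay between them. RPL39L differed by 0.19 on the log2 scale (SE 0.118, edgeR adjusted p = 0.250), and without knockdown replicate 2 it was 0.34 and called higher (edgeR adjusted p = 0.00961). RPL39P19, a pseudogene of RPL39, lies inside the RPL39L locus.

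**Figure D1:**
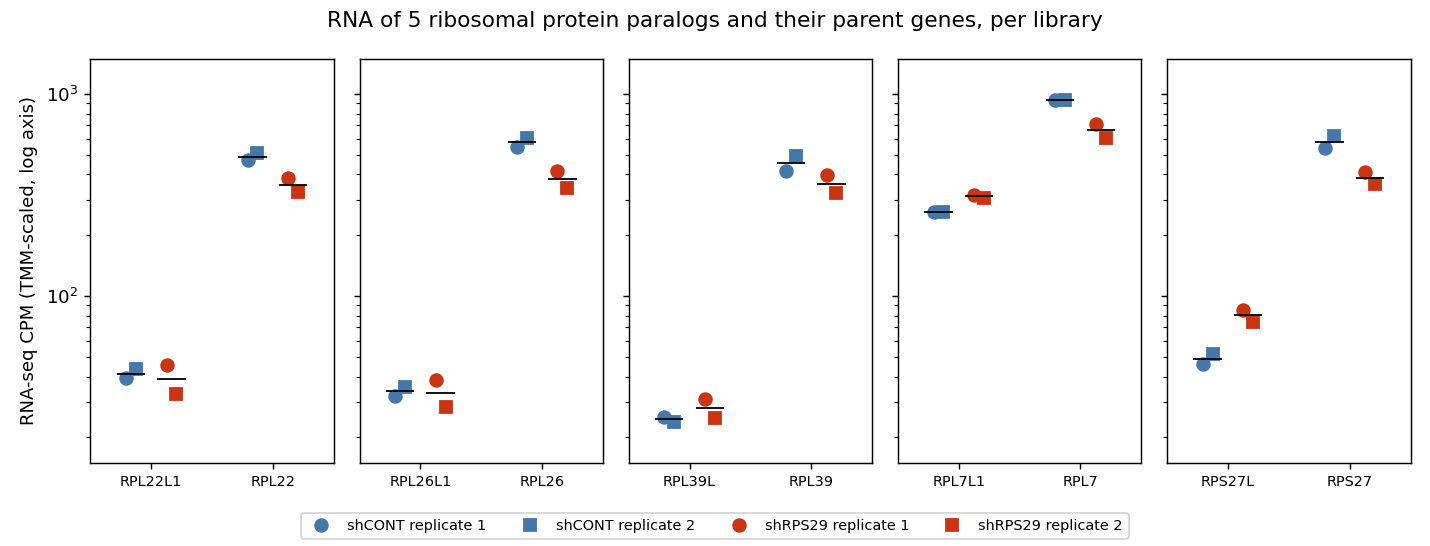
RNA-seq level of each paralog (left in each panel) and its parent (right) in CPM on a log axis, with 1 point per library, control libraries in blue, knockdown libraries in red, and a line at each group's mean (n = 2). RPS27L and RPL7L1 sit higher in both knockdown libraries, RPL22L1, RPL26L1 and RPL39L overlap, and every parent sits lower in both.

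All 5 parents fell. RPL22, an RNA-binding protein of the large subunit, went from 470.5 and 509 CPM in control libraries to 382 and 328 CPM with RPS29 depleted (log2 fold change -0.46, SE 0.0829, edgeR adjusted p = 7.10e-04). RPL26, near the exit of the peptide tunnel, was at 548 and 608 CPM against 415 and 342 CPM (-0.61, SE 0.0915, edgeR adjusted p = 1.71e-04). RPL39, a very small protein that lines the tunnel, was at 416 and 491 CPM against 397 and 323 CPM. It changed least of the 5 (-0.33, SE 0.0992, edgeR adjusted p = 0.0192).

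Levels of RPL7 were 932 and 939 CPM in control cells against 713 and 608 CPM (log2 fold change -0.50, SE 0.0842, edgeR adjusted p = 4.22e-04). RPS27, a zinc finger protein of the small subunit, was at 539.8 and 619 CPM against 411 and 359.9 CPM (-0.59, SE 0.0867, edgeR adjusted p = 1.54e-04). In every parent both knockdown libraries lay below both controls, an arrangement that 32.9% of all genes tested shared. Only the RPL39 call depended on a setting, since it was not made with DESeq2 (adjusted p = 0.210) or, at -0.21, without control replicate 2 (edgeR adjusted p = 0.325).

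The second comparison set each paralog against its parent within a library, where scaling between libraries cancels. Levels of different genes are not compared here, because transcript lengths were not used. In RNA-seq the ratio of paralog to parent counts was higher in both knockdown libraries than in both controls for all 5 pairs. With 2 libraries against 2 the exact two-sided permutation test cannot give a p below 0.333, and it gave 0.333 for each pair. The parents' own decrease enters every ratio, and most genes rose against a falling parent. Of all other genes tested, 72% stood higher in both knockdown libraries relative to RPL22, 79.3% relative to RPL26, 52.8% relative to RPL39, 76.1% relative to RPL7 and 78.7% relative to RPS27. A higher ratio in both knockdown libraries was thus common among all genes.

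The sizes differed between pairs. For every 100 counts of RPS27 there were 8.56 and 8.33 of RPS27L in control libraries, rising to 20.8 and 20.8, a log2 difference of 1.30 (SE 0.0195, n = 2 per group). RPL7L1 followed, with 27.9 and 27.8 counts per 100 of RPL7 in control cells and 44.6 and 50.4 in knockdown cells (0.77, SE 0.0894). These were the pairs in which the paralog itself rose.

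In the other 3 pairs the shift came with a parent that fell and a paralog that did not pass the test. Per 100 counts of RPL26, control libraries held 5.85 and 5.85 of RPL26L1 and knockdown libraries 9.22 and 8.24 (log2 difference 0.57, SE 0.0810). RPL39L had 6.09 and 4.85 per 100 of RPL39 against 7.81 and 7.75 (0.52, SE 0.164). RPL22L1 had 8.36 and 8.53 per 100 of RPL22 against 11.9 and 9.93, the smallest of the 5 differences (0.36, SE 0.130). These standard errors rest on 2 libraries per group. The difference of the 2 genes' edgeR log2 fold changes, with their standard errors combined as independent, was 0.38 for RPL22L1 (SE 0.151), 0.59 for RPL26L1 (0.156), 0.52 for RPL39L (0.154), 0.76 for RPL7L1 (0.109) and 1.30 for RPS27L (0.126).

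**Figure D2:**
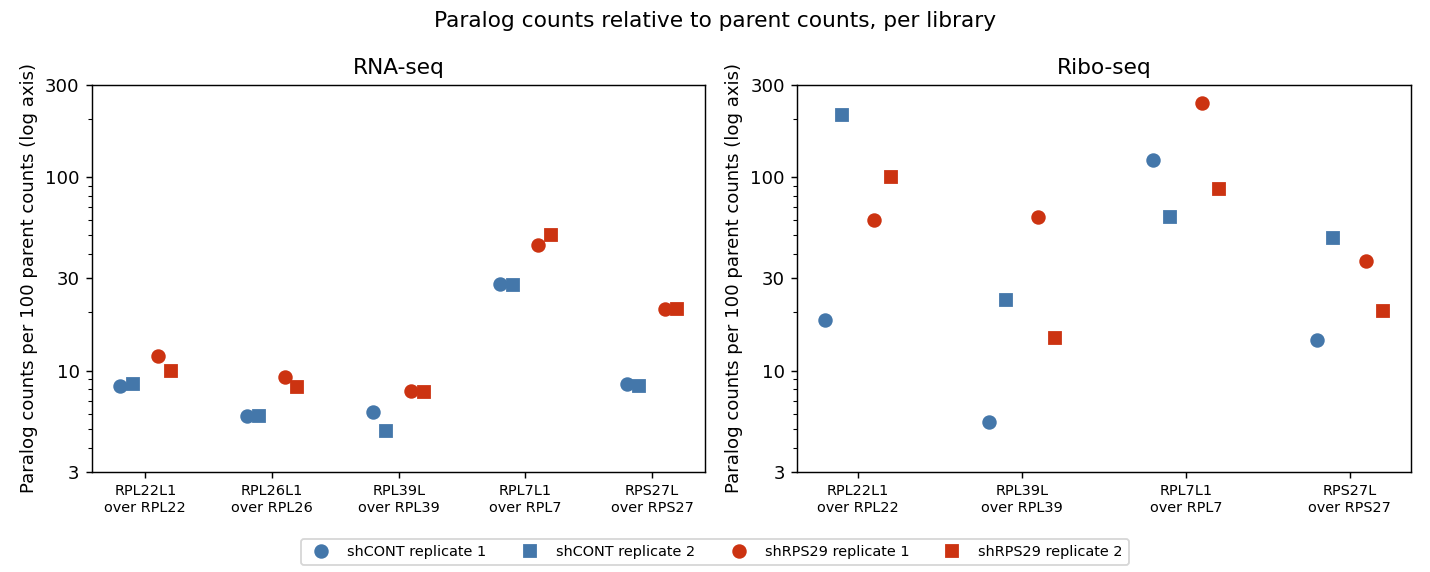
Paralog counts per 100 parent counts in each library, on a log axis, for RNA-seq (left, 5 pairs) and Ribo-seq (right, 4 pairs), with control libraries in blue and knockdown libraries in red. In RNA-seq the red points lie above the blue in every pair, from 8.33 and 8.56 to 20.8 for RPS27L over RPS27. In Ribo-seq the groups overlap in every pair.

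Copies of the parents bear on these counts. RefSeq lists 22 pseudogenes named for RPL22, 36 for RPL26, 40 for RPL39, 61 for RPL7 and 30 for RPS27, and 22 for RPL7L1 but none so named for the other 4 paralogs. Of those pseudogenes 1 to 3 per parent are listed in the RNA-seq table, with at most 17 counts in any library in all, and none in the Ribo-seq table. How reads shared between a parent, its pseudogenes and its paralog were assigned is not given in the sources used here, so the counts of parents and paralogs are uncertain to that extent.

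Beside the other ribosomal protein genes the paralogs stood at the upper end. Of 78 such genes, the 5 parents included, 0 were called higher and 63 lower by edgeR (unadjusted p below 0.05 gave 0 and 65, DESeq2 0 and 61, limma-voom 0 and 64), with a median log2 fold change of -0.51 against 0.01 for all genes tested. RPS9 (-1.19), RPS25 (-0.92) and RPS23 (-0.82) of the small subunit and RPL23A (-0.94) and RPL37 (-0.92) of the large were among those with the smallest p in their lists, 31 and 47 genes of which 23 and 40 fell. None of the 78 had a larger log2 fold change than RPS27L, RPL7L1 or RPL39L. For RPL26L1 3 did, and for RPL22L1 5. Over all genes tested, 14.4% were called higher and 16.3% lower. Counts of the 78 called higher and called lower both varied when 1 library was left out, which leaves 1 library in that group. The 5 paralogs had a median of 0.19.

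**Figure D3:**
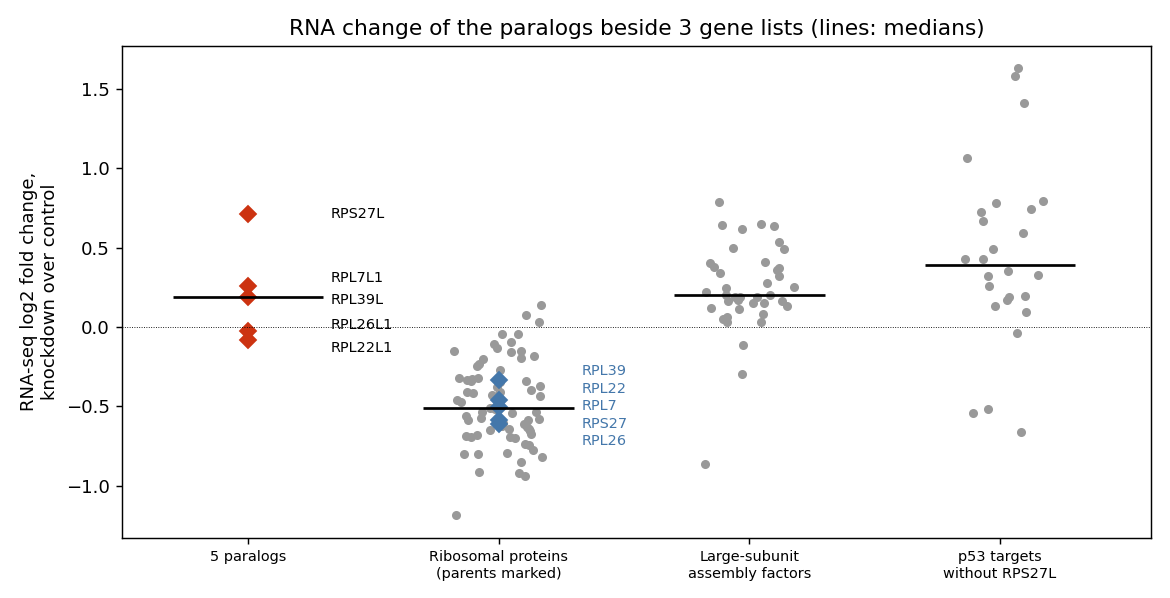
RNA-seq log2 fold change (knockdown over control) of the 5 paralogs (red), 78 ribosomal protein genes with the 5 parents in blue, 40 large-subunit assembly factors and 26 p53 targets other than RPS27L, with 1 point per gene and a line at each median. The paralogs run from -0.08 to 0.71, whereas the parents run from -0.61 to -0.33.

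A further 5 genes related to ribosomal proteins did not move as a group. RPL36AL, a paralog of RPL36A with a product nearly the same as its parent's, fell (log2 fold change -0.61, SE 0.0922, edgeR adjusted p = 1.75e-04), as did RPL36A (-0.74). Of the pseudogenes named for RPL36A, 2 are listed in RNA-seq, with 819 and 1135 counts in control libraries and 385 and 328 in knockdown libraries in all. MRTO4, an assembly factor related to RPLP0, rose (0.45, SE 0.0832, edgeR adjusted p = 8.27e-04) while RPLP0 fell (-0.33). RSL24D1, an assembly factor related to RPL24, was at -0.13 (SE 0.0870, edgeR adjusted p = 0.295), and at -0.28, called lower, without knockdown replicate 1 (edgeR adjusted p = 4.29e-04), with RPL24 at -0.34. RPL3L, the striated muscle paralog of RPL3, had 7 to 15 counts per library and was at 0.10 (SE 0.564, edgeR adjusted p = 0.914). RPL10L is in neither table used here. All 5 of these parents fell, RPL10 at -0.61 and RPL3 at -0.35 among them, but only 3 were called without control replicate 1 and 2 without control replicate 2.

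RPL7L1 belongs by function to large-subunit assembly. Of 40 such factors 20 rose and 2 fell (median log2 fold change 0.20), and 9 were called higher without control replicate 1. The shares over all 14723 genes tested were 14.4% higher and 16.3% lower. BOP1 (0.62) and DDX27 (0.64), which act in processing of large-subunit rRNA, were among the factors that rose. GTPBP4 (-0.86), a GTPase of early large-subunit particles, fell. RPL7L1, at 0.26, had 16 of the 40 above it and 24 below. By the same count RPL39L, at 0.19, had 23 above and 17 below, and RPL22L1 and RPL26L1 each had 37 above and 3 below.

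RPS27L belongs to the p53 targets. Of 27 in the list, RPS27L included, 17 rose and 3 fell, with a median of 0.43. The 3 that fell were TP53INP1 (-0.66), CCNG1 (-0.54) and ZMAT3 (-0.52). Over all 14723 genes tested, 14.4% were called higher and 16.3% lower. CDKN1A, which encodes p21 and arrests the cell cycle, rose by 1.41 (SE 0.0885), GDF15, a stress-induced growth factor, by 1.63 (SE 0.0921) and PHLDA3, an inhibitor of AKT signalling, by 1.06 (SE 0.0837). Of the other 26 targets, 8 had a larger log2 fold change than RPS27L and 18 a smaller one. MDM2, a ubiquitin ligase that several ribosomal proteins bind, was left out when this list was drawn up, so the counts above do not cover it. MDM2 RNA did not pass the test, at 0.01 (SE 0.0751, edgeR adjusted p = 0.933). Of the ribosomal proteins that bind it, RPL5 fell (-0.69) and RPL23 fell (-0.70), and RPL11 fell by less (-0.32, SE 0.0929, edgeR adjusted p = 0.0169).

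The promoters of RPL7L1 and RPS27L share a short motif close to the start and are shown because these were the paralogs whose RNA rose. Each line gives the 80 bases before the annotated start, 5' to 3', from the same RefSeq table, with CCGGAAG, a core of ETS-family binding sites, in capitals.
RPL7L1, chr6:42879536-42879615, plus strand: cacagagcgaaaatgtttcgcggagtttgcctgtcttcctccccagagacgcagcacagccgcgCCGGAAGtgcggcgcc
RPS27L, chr15:63157478-63157557, minus strand: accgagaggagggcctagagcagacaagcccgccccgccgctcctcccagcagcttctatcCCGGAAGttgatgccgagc
CCGGAAG was searched on both strands of windows from 250 bases before to 50 after the start, and neither RPL22L1 nor RPL26L1 held it. Of the further genes, RSL24D1, which was not called, held it. MRTO4, which rose, and RPL36AL, which fell, did not. The parent RPL26, which fell, held it too, as did 10.3% of all windows. So did 22 of 62 ribosomal protein genes (35.5%), counted per gene with any window that held it. Among the paralogs followed here with an entry, only RPS27L had a window with the p53 consensus decamer, and its parent RPS27 held it as well. The decamer was also present in the windows of RSL24D1, which was not called, and of RPLP0, which fell. It occurred in 6.63% of all windows and in 10 of 62 ribosomal protein genes (16.1%). The E-box CACGTG occurred in the windows of RPL7L1 and of MRTO4, in 7.26% of all windows and in 4 of 62 ribosomal protein genes (6.45%).

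The TOP-type start did not separate genes that fell from the rest within the ribosomal protein list. The 47 with such a start had a median RNA log2 fold change of -0.47 and the 15 without one -0.50. Leaving out ribosomal protein genes, the 800 tested with such a start had a median of -0.03, with 22.8% lower, and the 10810 without one, ribosomal protein genes included, a median of 0.01, with 15.8% lower. RPL22L1, the paralog with such a start, was at -0.08.

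Over the 4 RNA-seq libraries the genes most like each paralog were not the parents. Likeness was measured as the root mean square difference in log2 CPM after subtracting each gene's control mean, over 10262 other genes with at least 10 CPM. RPS27L was closest to SNHG20 (0.0178) and CIBAR1 (0.0199), and RPS27 ranked 9678th. RPL7L1 was closest to ATP6AP1 (0.00334) and E2F1 (0.00681), with RPL7 ranking 9456th. RPL39L was closest to LSM1 (0.0125) and NDUFA2 (0.0159), with RPL39 ranking 8446th. RPL26L1 was closest to TMEM218 (0.0210) and PIGP (0.0215), with RPL26 ranking 9038th. RPL22L1 was closest to GMNN (0.0371) and COMMD1 (0.0376), and RPL22 ranked 5913th, nearest of the 5 parents. As all 5 parents fell and no paralog was called lower, the ranks of the parents largely repeat the fold changes given above. The likeness rests on 4 libraries, searched over 10262 genes, and is a description.

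The third comparison asked how ribosome footprints of the paralogs differed. None of the 4 tested paralogs and none of the 4 tested parents was called in either direction by edgeR's quasi-likelihood test (0 also at an unadjusted p below 0.05, with DESeq2 and with limma-voom), where 7.96% of all 11853 genes were called higher and 0.607% lower. Footprint counts of the paralogs were between 4 and 97 per library. The median standard error of a log2 fold change was 0.738 over all genes in Ribo-seq, against 0.108 in RNA-seq, so changes of the size seen in RNA lay within the error of the footprint comparison. RPL3, with 3723 to 8708 footprint counts per library, had a standard error of 0.721. Small nucleolar RNA genes (SNORD83A, SNORD83B, SNORD139 and SNORD43) lie inside RPL3. Their reads could be counted there if counting ran over whole genes.

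Control libraries held 11 and 5 footprint counts of RPL7L1 and knockdown libraries 17 and 27, or 3.28 and 1.52 CPM against 7.07 and 6.77 CPM. It was the only paralog whose knockdown libraries both lay above both controls, as 29% of all genes did, with a log2 fold change of 1.51 (SE 1.07, edgeR adjusted p = 0.440). RPS27L, whose RNA rose, had 18 and 53 footprint counts without the knockdown and 17 and 23 with it, which is 5.37 and 16.1 CPM against 7.07 and 5.77 CPM. It differed by -0.74 on the log2 scale (SE 0.817, edgeR adjusted p = 0.650), and by 0.21 without control replicate 2, the library that stood high.

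RPL22L1 footprints were high in control replicate 2 alone. Counts were 4 and 97 in control libraries and 9 and 20 in knockdown libraries (1.19 and 29.4 CPM against 3.74 and 5.02 CPM). The difference of -1.78 on the log2 scale did not pass the test (SE 1.02, edgeR adjusted p = 0.318). It was 1.82 without control replicate 2 and -2.76, called lower, without control replicate 1 (edgeR adjusted p = 0.0498). RPL39L had 7 and 13 counts against 13 and 11 (2.09 and 3.94 CPM against 5.41 and 2.76 CPM) and a log2 fold change of 0.42 (SE 1.18, edgeR adjusted p = 0.883).

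Reads spread over gene spans could add to such low counts if counting ran over whole genes. Whether it did is not given in the sources used here. In 141 genes at or below 0.1 RNA CPM, the median footprint count per kilobase of span, carried over to the 18.5 kb of RPL39L, came to 1.14 and 0.851 counts for the control libraries and 6.39 and 4.13 for the others. For RPL7L1 (10.3 kb) it came to 0.632 and 0.472 against 3.54 and 2.29 counts, and for RPS27L (9.23 kb) to 0.567 and 0.424 against 3.18 and 2.06. For RPL22L1 (5.32 kb) it was 0.327 and 0.244 against 1.83 and 1.19. Since the same median per library is scaled by each span, its direction is the same for every gene. The amount was larger in both knockdown libraries, and its part in the footprint differences was not tested.

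Parent footprints were no firmer. RPL22 was at -0.87 (SE 0.822, edgeR adjusted p = 0.582), RPL26 at -0.98 (SE 0.754, adjusted p = 0.483), RPL39 at -0.99 (SE 0.633, adjusted p = 0.381) and RPS27 at -0.56 (SE 0.552, adjusted p = 0.598). RPL22, RPL26 and RPS27 were lower in both knockdown libraries, as were 26.7% of all genes tested. RPL7, with 9 and 8 counts against 7 and 31, did not pass the count filter. Scaled to library size it was higher in both knockdown libraries (2.69 and 2.43 CPM against 2.91 and 7.78 CPM). A small nucleolar RNA gene, SNORA69, lies inside RPL39, and its reads could be counted there if counting ran over whole genes.

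Within Ribo-seq libraries the ratio of paralog to parent overlapped between groups in all 4 pairs. RPL22L1 had 18.2 and 211 counts per 100 of RPL22 in control libraries against 60 and 100 in knockdown libraries. RPL39L had 5.43 and 23.2 per 100 of RPL39 against 61.9 and 14.7, RPL7L1 122 and 62.5 per 100 of RPL7 against 243 and 87.1, and RPS27L 14.4 and 48.6 per 100 of RPS27 against 37 and 20.4. The log2 differences were 0.27 (SE 1.73), 1.39 (SE 1.45), 0.69 (SE 0.841) and 0.06 (SE 0.966), with exact two-sided permutation p-values of 1, 0.667, 0.667 and 1. No separation was reached in 4 of 4 pairs, where 42.6%, 43%, 9.73% and 42.5% of all genes tested stood higher in both knockdown libraries against the same parent.

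The last comparison asked whether footprints per RNA (translational efficiency) differed, as the interaction of assay and condition. None of the 4 paralogs with both values was called by edgeR, DESeq2 or limma-voom, where edgeR called 3.01% of 10648 genes higher and 0.873% lower. At an unadjusted p below 0.05, 1 paralog was higher with each tool. With edgeR this was RPL7L1, at a log2 change of 1.37 (SE 0.462, edgeR adjusted p = 0.114). RPS27L was at -1.34 (SE 0.626, edgeR adjusted p = 0.221), RPL22L1 at -1.56 (SE 1.32, adjusted p = 0.497) and RPL39L at 0.32 (SE 0.659, adjusted p = 0.802). Among the parents, RPS27 was at 0.15, RPL26 at -0.28, RPL22 at -0.30 and RPL39 at -0.53, none called.

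The interaction values changed with the Ribo-seq library left out. Without control replicate 1, a fit that called 971 genes higher and 500 lower of 11474 against 321 and 93 of 10648 with all libraries, RPL7L1 was called higher (2.06, edgeR adjusted p = 0.0371), and RPS27L (-1.91) and RPL22L1 (-2.48) were called lower, each with an adjusted p = 0.0332. Without Ribo-seq control replicate 2 RPL22L1 was at 2.06 and not called (adjusted p = 0.104). The model holds 1 dispersion per gene for both assays, and the SE for RPL7L1 was 0.462 here against 1.07 in Ribo-seq alone.

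**Figure D4:**
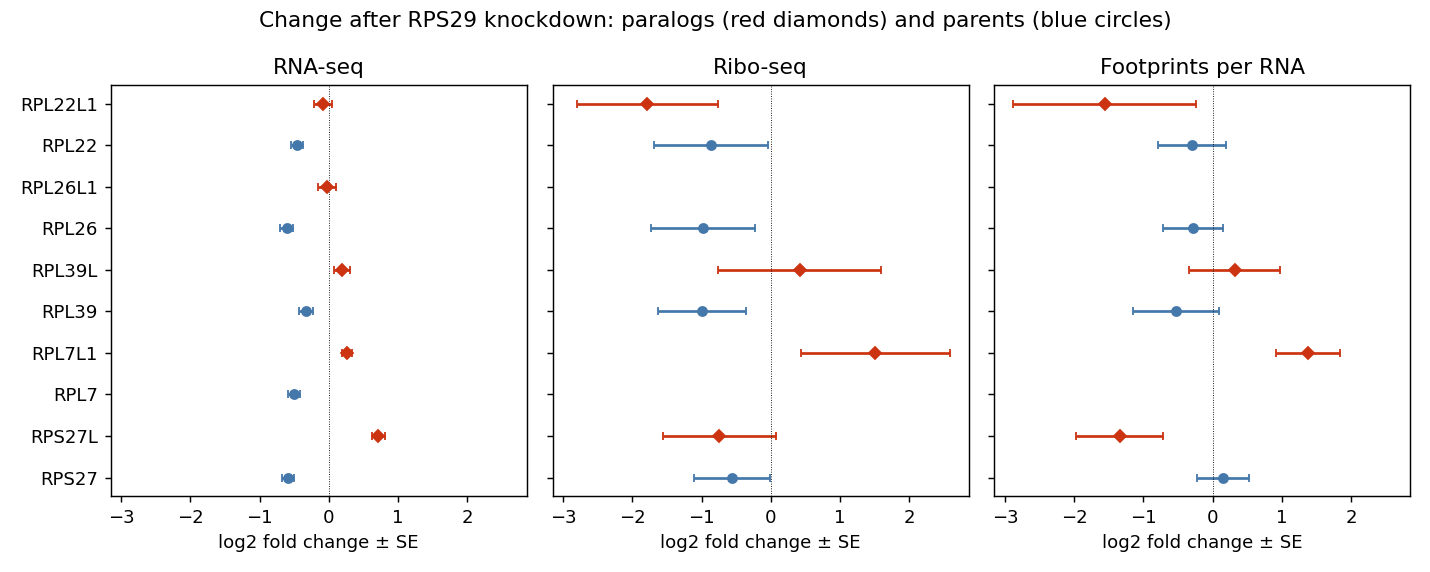
Log2 fold change (knockdown over control) with its standard error for each paralog (red diamonds) and parent (blue circles) in RNA-seq, Ribo-seq and footprints per RNA. RNA-seq errors are small, with RPS27L at 0.71 and RPS27 at -0.59, while Ribo-seq errors run from 0.552 to 1.18. RPL26L1 and RPL7 have no tested footprint value.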

How the data were processed

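Each assay has 4 SH-SY5Y libraries. Total RNA went into a strand-specific kit, and footprints left by RNase I were taken from monosomes, depleted of rRNA and made into small RNA libraries, per the labels' protocols. The authors deposited 1 table of raw counts by gene symbol per assay. Trim Galore, Salmon, Bowtie2, STAR and featureCounts with build hg38 are named per the submitters' processing notes. Their versions, the annotation and the treatment of multi-mapping reads were not given in the sources used here.

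Counts were tested with edgeR 4.0.16 (quasi-likelihood, TMM, filterByExpr, Benjamini-Hochberg over all genes tested) in R 4.3.3, with calls at an adjusted p below 0.05. The SE is the log2 fold change over the root of F. Footprints per RNA were tested as an interaction over all 8 libraries. CPM used TMM factors of the genes tested. Paralog to parent log2 ratios had 0.5 added to each count, and were tested by exact permutation (scipy 1.17.1). The tests were checked on simulated data. Alternatives were RLE and upper-quartile scaling, DESeq2 1.42.0, limma-voom (limma 3.58.1), no filter, at least 50 counts in each group mean, a replicate block, and leaving out each library.

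The members and lists were chosen with earlier results of these data known. Named genes are the members, their parents, RPS29, 5 further pairs, MDM2, RPL11 and the p53 targets that fell. Also named are the 3 genes of smallest RNA-seq p in each other list and the 2 genes most like each paralog. Some genes and 1 list that this rule names are not reported here. Lists were ribosomal proteins of each subunit, large-subunit assembly factors, p53 targets and cell type markers. Positions, spans, pseudogenes and promoters came from RefSeq tables of GRCh38.p14.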

Additional observations from a re-analysis of the deposited data

How the results depend on the processing

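RPS27L kept its direction and its RNA-seq call under all 11 alternatives (log2 fold change 0.61 to 0.81), and so did the decreases of RPL22, RPL26, RPL7 and RPS27. For the ratio of paralog to parent in RNA-seq, leaving out 1 library cannot turn the direction of groups that do not overlap. It gave 0.23 to 0.49 for RPL22L1, 0.49 to 0.66 for RPL26L1, 0.35 to 0.68 for RPL39L, 0.68 to 0.86 for RPL7L1 and 1.28 to 1.32 for RPS27L. Leaving out 1 library gave 1 to 3 paralogs higher and 0 to 2 lower in RNA-seq, 0 to 1 lower in Ribo-seq, and, in footprints per RNA, 0 to 1 paralogs higher, 0 to 2 lower and 0 to 1 parents higher. The cause was not tested.

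Leaving out 1 library also gave these ranges, all of which cross 0 except that of RPL39L over RPL39. RNA-seq ranges were -0.35 to 0.14 for RPL22L1, -0.27 to 0.18 for RPL26L1, -0.28 to 0.00745 for RSL24D1, -0.33 to 0.74 for RPL3L and -0.042 to 0.065 for MDM2. Ribo-seq ranges were -2.76 to 1.82 for RPL22L1, -0.12 to 0.89 for RPL39L and -1.36 to 0.21 for RPS27L. Ranges of footprints per RNA were -2.48 to 2.06 for RPL22L1, -0.23 to 0.78 for RPL39L (-0.070 without Ribo-seq control replicate 1), -0.72 to 0.30 for RPL22, -0.73 to 0.12 for RPL26, -1.21 to 0.22 for RPL39 and -0.17 to 0.36 for RPS27. Ribo-seq paralog to parent ratios ranged from -1.42 to 1.97 for RPL22L1, 0.37 to 2.42 for RPL39L, -0.020 to 1.40 for RPL7L1 and -0.81 to 0.92 for RPS27L. With counts summed over libraries the ratio was -0.84 for RPL22L1 and -0.27 for RPS27L, and as the difference of edgeR log2 fold changes -0.92 and -0.18.

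Same-numbered replicates were not stated to share a culture or day, and their deviations correlated at -0.0377 in RNA-seq and 0.110 in Ribo-seq. With a replicate block 2 paralogs were higher and 5 parents lower in RNA-seq, as without it, and RPS27L over RPS27 stayed at 1.30. The block ended the calls of RPL3 (edgeR adjusted p = 0.0513) and RPLP0 (0.0702) and left 3 of the 5 further parents lower. Over all genes it gave 1402 higher and 397 lower in Ribo-seq (944 and 72 without it) and 22 and 0 in footprints per RNA (321 and 93). Those last 2 counts were 1030 and 694 with DESeq2, 495 and 180 with limma-voom, and 44 and 29 with at least 50 counts in each group mean, where Ribo-seq had 170 and 12. Ribo-seq decreases numbered 170 with DESeq2 and 171 with limma-voom, and decreases of footprints per RNA 58 with no count filter. Leaving out 1 library gave 1225 to 2739 higher in RNA-seq and 0 to 2030 in footprints per RNA. The error of the footprint values, whose libraries hold fewer counts and differ more between replicates than in RNA-seq, limits every statement on translation of these genes.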
